A study of Homo sapiens with 6 samples.

Results

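The genes described here are the nuclear effectors of the Hippo pathway and the genes they are best known to switch on, in MDA-MB-231 cells depleted of Sam68. They are 10 of the 74852 loci listed by the authors and were taken by gene symbol: the coactivators YAP1 and WWTR1 (which encodes TAZ), the DNA-binding partners TEAD1, TEAD3 and TEAD4, and the targets CTGF, CYR61, ANKRD1, AMOTL2 and LATS2. All 10 were among the 18849 loci that had enough reads to be tested. MDA-MB-231 is a single established cell line from a triple-negative breast cancer, so nothing here speaks for other lines or tumors. By the labels, the cells received 2 rounds of transfection, either with non-targeting control siRNA (si-CTRL, 3 libraries) or with siRNA against SAM68 (si-SAM68, 3 libraries), and were collected 24 h after the last round. The methods of the study give another interval before collection, and state that each siRNA reagent was a pool. Polyadenylated RNA was sequenced to ask which transcripts depend on Sam68, an RNA-binding protein that regulates splicing. It is not stated whether the 3 libraries of a group came from separate cultures, and the p-values then measure only the spread between these libraries, which may be technical.

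In the Hippo pathway, the kinases MST1 and MST2 (genes STK4 and STK3) activate the kinases LATS1 and LATS2, which phosphorylate YAP and TAZ and so hold them in the cytoplasm or mark them for degradation. Unphosphorylated YAP and TAZ enter the nucleus, where they cannot bind DNA themselves and act through TEAD proteins at genes for matricellular proteins, cytoskeletal regulators and inhibitors of the pathway itself. Both coactivators are well known for promoting growth and invasion in breast cancer cells, and MDA-MB-231 cells carry a mutation of NF2, an upstream activator. Phosphorylation and nuclear localization are not visible in RNA levels, and none of the values below measure them.

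TEAD proteins recognise the bases GGAATG. RefSeq promoters (GRCh38.p14) were present for 7 of the 10 genes, with 9 start sites, and the 250 bases upstream of each start were searched on both strands (GGAATG or CATTCC). TEAD1, TEAD4 and CYR61 had no entry, so their promoters were not searched. Of 35116 promoter windows of all genes, 11.9% held the motif at least once, 0.940% at least 2 times and 0.0826% at least 3 times. The windows of the 4 genes with a match are printed 5′ to 3′ on the strand of the gene, with the motif in capitals, because they show that the classical targets and YAP1 itself differ in the number of copies.
CTGF, chr6:131951373-131951622, minus strand: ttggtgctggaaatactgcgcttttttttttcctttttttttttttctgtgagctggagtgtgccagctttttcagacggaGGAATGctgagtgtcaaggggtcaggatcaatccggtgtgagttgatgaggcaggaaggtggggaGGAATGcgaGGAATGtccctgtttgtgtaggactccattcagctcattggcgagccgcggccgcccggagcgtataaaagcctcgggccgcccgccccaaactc
ANKRD1, chr10:90921088-90921337, minus strand: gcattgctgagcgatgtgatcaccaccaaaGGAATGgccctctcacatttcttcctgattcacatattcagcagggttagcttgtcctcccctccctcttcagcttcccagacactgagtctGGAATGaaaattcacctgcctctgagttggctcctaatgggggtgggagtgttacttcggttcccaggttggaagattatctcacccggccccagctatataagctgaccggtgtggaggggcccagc
YAP1, chr11:102110197-102110446, plus strand: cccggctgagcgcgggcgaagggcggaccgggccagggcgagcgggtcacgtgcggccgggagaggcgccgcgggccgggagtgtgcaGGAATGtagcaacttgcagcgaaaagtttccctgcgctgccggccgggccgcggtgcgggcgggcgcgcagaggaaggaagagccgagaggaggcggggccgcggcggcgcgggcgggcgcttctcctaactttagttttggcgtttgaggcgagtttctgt
AMOTL2, chr3:134374448-134374697, minus strand: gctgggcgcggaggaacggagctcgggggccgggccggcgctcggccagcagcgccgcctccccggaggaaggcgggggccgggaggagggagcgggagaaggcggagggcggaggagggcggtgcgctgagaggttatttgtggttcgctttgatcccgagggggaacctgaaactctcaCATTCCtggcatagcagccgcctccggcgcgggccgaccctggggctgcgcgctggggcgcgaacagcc
The window of CTGF held 3 copies, 1 at bases 169 to 164 upstream of the start and a close pair at bases 104 to 99 and 95 to 90. That of ANKRD1 held 2 copies, at bases 220 to 215 and 128 to 123. The window of YAP1 held 1 copy, at bases 162 to 157, and 1 of the 2 start sites of AMOTL2 had 1 copy on the opposite strand, at bases 69 to 64. No match lay in the upstream windows of WWTR1 (2 start sites), TEAD3 or LATS2. LATS2 had a match at bases 10 to 15 downstream of its start. It was the only downstream match in the promoter entries of the 7 genes, and the shares of all genes above do not cover downstream bases. A match describes the letters of the window and not binding, and targets also respond through distant enhancers that were not searched.

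The 4 siRNAs of the SAM68 pool are printed as sense strands, since an siRNA can also lower transcripts that match only its seed. The capitals mark bases 12 to 18, the stretch of the sense strand that pairs with bases 2 to 8 of the guide strand. All 4 sense strands were found in KHDRBS1 transcripts.
siSAM68_1: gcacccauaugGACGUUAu
siSAM68_2: gaaagagcgagUGCUGAUa
siSAM68_3: uaugauggaugAUAUCUGu
siSAM68_4: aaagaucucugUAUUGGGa
In the longest 3′UTR of each of 19127 genes (GENCODE 29), the capital bases of siRNAs 1, 2, 3 and 4 were present in 1.29%, 12.2%, 11.6% and 7.95% of the genes. The 3′UTR of YAP1 held the capital bases of siRNAs 2, 3 and 4, at positions 492 to 498, 470 to 476 and 2720 to 2726. These sites are printed with their flanks.
YAP1 site of siSAM68_2: taaatacttaaTGCTGATttgaaga
YAP1 site of siSAM68_3: ccaaaaatgttATATCTGatattaa
YAP1 site of siSAM68_4: cttcttggttgTATTGGGtagcatt
Matches to at least 3 of the 4 siRNAs were found in 179 genes (0.936%), and YAP1 was the only one of the 10 genes among them. The 3′UTR of YAP1 has 3483 bases, whereas the median over genes is 1102, and 86.0% of genes have a shorter one. TEAD1 (siRNAs 2 and 3), CYR61 (siRNAs 3 and 4), WWTR1 (siRNA 2) and LATS2 (siRNA 2) also had matches. In total, 5 of the 10 genes matched at least 1 siRNA of the SAM68 pool, compared with 26.2% of all genes. The 3′UTRs of TEAD1 (7261 bases), WWTR1 (3570) and LATS2 (1838) are also longer than the median, and that of CYR61 (920) is shorter. A longer 3′UTR has more room for a match, and these shares were not adjusted for length. The si-CTRL pool matched 50.01% of all genes and 8 of the 10, including YAP1 by 2 of its 4 siRNAs. The part of these seed matches in the values below was not tested.

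The libraries held 52625492 to 82568487 reads on loci, and the deposited value of a gene is its read count divided by a size factor of the library (normalized read count). Reads of a single rRNA locus made up 15.1% of si-SAM68 replicate 2 and 1.83 to 3.17% of the other 5 libraries. KHDRBS1, the gene for Sam68, fell from 14960.0 ± 619.7 (SD, n = 3) to 618 ± 45.8 (SD, n = 3), a log2 fold change of -4.60 (limma, adjusted p = 2.13e-09). The markers chosen for the line behaved by its label: VIM (138300.0 to 173162) and CD44 (43246 to 68397) were abundant, while ESR1, PGR, CDH1, EPCAM, PTPRC, PECAM1 and ADIPOQ had at most 16.2 normalized reads in any library. ERBB2, which is not amplified in this line but shares its locus with a microRNA gene, had 2413 to 3447. In bulk RNA, fewer cells of a type and less RNA per cell cannot be told apart.

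Of the 10 genes, 2 had an adjusted p under 0.05 in si-SAM68 vs. si-CTRL cells, and both were lower: YAP1 and LATS2. Adjusted p-values come from limma on log2(normalized read count + 1), with Benjamini-Hochberg adjustment over all 18849 loci. Among all of these loci, 10.7% were called at this threshold, 6.23% as lower and 4.47% as higher. This fit did not pair the libraries. With the replicate number as a block, 1 of the 10 genes (YAP1) and 1697 of all loci were called. In 4 of the 10 genes (YAP1, TEAD4, AMOTL2 and LATS2) every si-SAM68 library lay below every si-CTRL library, and the groups did not overlap in 33.9% of all loci. The thresholds of the study are an unadjusted p-value of at most 0.05 with a fold change of at least 1.5. Applied to the limma p-values here, they were passed by 1 of the 10 (YAP1) and by 7.67% of all loci. These p-values are not those of the study, so this share is not its count of regulated genes. The median log2 fold change of the 10 genes was -0.17, with 7 below 0 and 3 above, and that of all loci was 0.01.

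**Figure D1:**
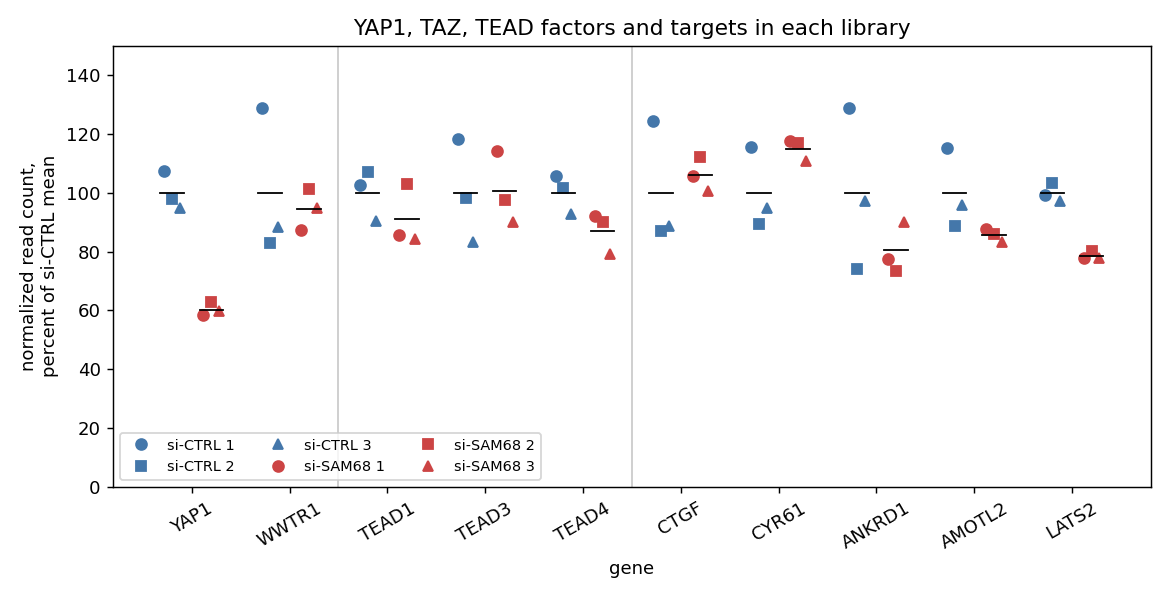
Normalized read count of each gene in each of the 6 libraries as a percent of the si-CTRL mean of that gene. Horizontal lines are group means, marker shapes give the replicate number, and gray lines part coactivators, TEAD factors and targets. YAP1 lies at 60.3% in si-SAM68 cells and LATS2 at 78.7%, each with no overlap between groups, whereas si-CTRL replicate 1 (blue circles) is the highest control in 8 of the 10 genes.

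YAP1 encodes the coactivator YAP, and it was the gene of the 10 with the largest change. Its normalized read counts were 3013, 2744 and 2656 in the control libraries (replicates 1, 2 and 3 in this order, as for every gene here) against 1635, 1759.7 and 1678 after depletion of Sam68. The groups were far apart: the highest si-SAM68 library was well below the lowest si-CTRL library. The mean fell from 2804 ± 186 to 1691 ± 63.4 (SD, n = 3 per group), which left 60.3% of the si-CTRL level. The log2 fold change was -0.73 (SE 0.0828, 95% interval -0.91 to -0.54), and the adjusted p from limma was 0.00101. YAP1 kept this call in all 16 alternative analyses that were run. With each library left out in turn, its log2 fold change stayed between -0.77 and -0.68, with an adjusted p of at most 0.0126. The locus (GSHG0005207) spans chr11:101981181-102104154 in hg19, and at least 1502 reads were counted on it in each library.

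WWTR1 encodes TAZ, the paralog of YAP, and its response was not resolved. Its normalized read counts were 3686, 2374 and 2525 in the si-CTRL libraries and 2499, 2900.4 and 2718 in the si-SAM68 libraries (GSHG0022144, chr3:149235022-149454501). A single control, si-CTRL replicate 1, was above all other libraries, and the si-SAM68 libraries were within the range of the controls. Means were 2862 ± 718 in si-CTRL and 2706 ± 201 in si-SAM68 libraries (SD, n = 3). The log2 fold change was -0.06 (SE 0.150, 95% interval -0.39 to 0.28, adjusted p = 0.852 by limma). A decrease as large as the YAP1 estimate of -0.73 was outside this interval, as it was for each of the other 8 genes. That estimate has an interval of its own, which those of ANKRD1 and LATS2 overlapped. Smaller changes in either direction were inside the interval of WWTR1. The sign depended on single libraries: leaving out si-CTRL replicate 1 gave 0.14 (adjusted p = 0.262), and leaving out si-SAM68 replicate 1 gave 0.00085.

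The ratio of YAP1 to WWTR1 within a library does not depend on the scaling of libraries. On the log2 scale the si-CTRL libraries had -0.29, 0.21 and 0.07, and the si-SAM68 libraries had -0.61, -0.72 and -0.70. All si-SAM68 libraries were below all controls. The difference of means was -0.67, or a 1.59-fold lower ratio (exact permutation test, two-sided, p = 0.1, which is the smallest that 3 libraries against 3 allow). The design therefore cannot bring this test under 0.05.

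The TEAD genes encode the DNA-binding partners through which both coactivators act, and none of the 3 passed the test. TEAD4 (GSHG0006387, chr12:3068478-3149842) came nearest, with 1571, 1510.0 and 1379 in the si-CTRL libraries and 1370.1, 1339 and 1176 in the si-SAM68 libraries. All 3 si-SAM68 values of TEAD4 were below the controls, although the highest of them nearly touched the lowest control. Its log2 fold change was -0.20 (SE 0.0953, 95% interval -0.41 to 0.01, adjusted p = 0.211 by limma). TEAD1 (GSHG0004652, chr11:12695969-12966283) had 2441, 2543 and 2146 in si-CTRL and 2034, 2447 and 2004 in si-SAM68 libraries. These values overlapped, with a log2 fold change of -0.14 (SE 0.104, 95% interval -0.37 to 0.09, adjusted p = 0.427). TEAD3 (GSHG0026550, chr6:35441376-35464861) had 1467, 1218 and 1031 in si-CTRL and 1416, 1209.7 and 1115 in si-SAM68 libraries. The group means of TEAD3 were nearly equal (1239 ± 219 and 1247 ± 154), and its log2 fold change was 0.02 (SE 0.138, 95% interval -0.29 to 0.32, adjusted p = 0.955). Leaving out si-CTRL replicate 3 turned its sign to -0.11, and leaving out si-SAM68 replicate 1 turned it to -0.08. In both groups the replicate 1 library had the highest TEAD3 value and the replicate 3 library the lowest.

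CTGF and CYR61 encode secreted matricellular proteins and are the targets most often used as a readout of YAP and TAZ. CYR61 (GSHG0000668, chr1:86045883-86049650) was the most abundant of the 10, with 18949, 14629.8 and 15560.4 in the si-CTRL libraries and 19265, 19144 and 18139 in the si-SAM68 libraries. The si-SAM68 libraries were close together and above si-CTRL replicates 2 and 3, but si-CTRL replicate 1 lay among them. The log2 fold change of CYR61 was 0.21 (SE 0.0983, 95% interval -0.01 to 0.43, adjusted p = 0.201 by limma). CTGF (GSHG0026909, chr6:132269213-132272518) had 5638, 3944 and 4025 in si-CTRL and 4798, 5087 and 4559.9 in si-SAM68 libraries. It showed the same arrangement, with si-CTRL replicate 1 above all si-SAM68 libraries and the other controls below them. Its log2 fold change was 0.10 (SE 0.129, 95% interval -0.18 to 0.39, adjusted p = 0.645). Without si-CTRL replicate 1, both genes passed the threshold as higher in si-SAM68 cells, CYR61 with a log2 fold change of 0.32 (adjusted p = 0.00608) and CTGF with 0.27 (adjusted p = 0.0210). No other omission of a library brought either gene past the threshold. The omission of si-CTRL replicate 1 also raised the number of all loci called, from 2017 to 2834.

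ANKRD1 encodes a nuclear ankyrin repeat protein, and its controls varied most of the 10 relative to their mean. The values were 1459.8, 839 and 1099.9 in si-CTRL and 878, 833 and 1022 in si-SAM68 libraries (GSHG0004245, chr10:92671857-92681033). The lowest control and the lowest si-SAM68 library were almost equal. Its log2 fold change was -0.28 (SE 0.177, 95% interval -0.68 to 0.11, adjusted p = 0.336 by limma) and it ranged from -0.48 to -0.08 with single libraries left out. AMOTL2 encodes a junctional scaffold of the angiomotin family that binds YAP and restrains it. The AMOTL2 locus (GSHG0132330, chr3:134074187-134094259) also holds MIR6827, and had 3858, 2974 and 3208 in si-CTRL and 2931, 2876 and 2786 in si-SAM68 libraries. All si-SAM68 libraries were lower, but the gap to the lowest control was small beside the spread of the controls. The log2 fold change of AMOTL2 was -0.22 (SE 0.10, 95% interval -0.44 to 0.01, adjusted p = 0.200).

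LATS2 is both a target of YAP and the kinase that inactivates it. Its normalized read counts were 765, 796 and 747 in the si-CTRL libraries and 598, 617 and 599.9 in the si-SAM68 libraries (GSHG0008345, chr13:21547178-21635722). Both groups were tight and did not overlap. The mean fell from 769 ± 24.8 to 605 ± 10.5 (SD, n = 3 per group), to 78.7% of si-CTRL. This was a log2 fold change of -0.35 (SE 0.0892, 95% interval -0.54 to -0.15, adjusted p = 0.0370 by limma). The size was stable, between -0.37 and -0.32 in all 16 alternatives, but the call was not. With the replicate number as a block, the adjusted p was 0.0607, and without a filter on low values 0.0555. The call was also lost without si-CTRL replicate 2 (adjusted p = 0.101), si-CTRL replicate 3 (0.0826), si-SAM68 replicate 1 (0.0958), si-SAM68 replicate 2 (0.118) or si-SAM68 replicate 3 (0.123). It was kept by edgeR (0.0335) and DESeq2 (0.0158) on the recovered reads.

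**Figure D2:**
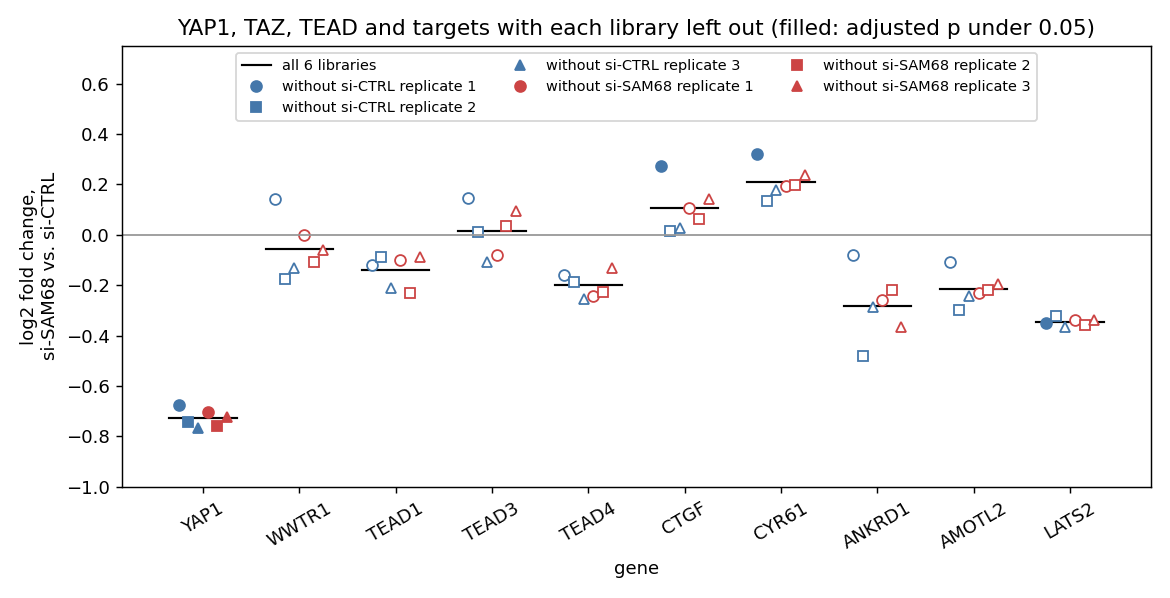
Log2 fold change of each gene, si-SAM68 vs. si-CTRL, with all 6 libraries (line) and with each library left out (points). Filled points have an adjusted p under 0.05 in limma. YAP1 is filled throughout, and LATS2, CTGF and CYR61 are filled only without si-CTRL replicate 1. With all 6 libraries, LATS2 was called and CTGF and CYR61 were not.

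si-CTRL replicate 1 stood apart in most of these genes. It was the highest of the 3 controls in 8 of the 10 (80%) and in 40.5% of all loci tested. Its value divided by the mean of the other controls was 1.51 in ANKRD1, 1.5 in WWTR1, 1.41 in CTGF and 1.3 in TEAD3. This factor was 1.26 in CYR61, 1.25 in AMOTL2, 1.12 in YAP1, 1.09 in TEAD4, 1.04 in TEAD1 and 0.991 in LATS2. The median of its log2 difference from the other controls was 0.32 over the 10 genes and -0.000045 over all loci. The number of the 10 genes called rose from 2 to 4 without this library and fell to 1 without any other single library. All loci showed the same pattern. The number called rose from 2017 to 2834 (of 18908 tested) without this library, and it fell to between 627 and 1607 without any other. The part of this library in the spread of the targets is visible in these values, but its source was not tested.

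Levels can be compared between genes only per length, and were divided here by the length of all exons of the gene in GENCODE 29. In si-CTRL cells, CYR61 was highest with 7153 normalized reads per kb, followed by CTGF with 1939. TEAD4 (654), AMOTL2 (601), ANKRD1 (572), YAP1 (498), WWTR1 (468) and TEAD3 (407) came next, and each of these overlapped its neighbour in the order over the 3 libraries. TEAD1 (256) and LATS2 (139.6) were lower, with no overlap between them or with TEAD3. In si-SAM68 cells YAP1 had 300.3 per kb (range 290.4 to 313), which put it below every library of WWTR1 (409 to 474) and TEAD3 (366 to 465) and above every library of TEAD1 (216 to 264). TAZ transcripts therefore exceeded YAP transcripts per length in all 3 si-SAM68 libraries, while in the si-CTRL libraries the ranges of WWTR1 (388 to 603) and YAP1 (472 to 535) overlapped. These levels are a description and carry no test.

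**Figure D3:**
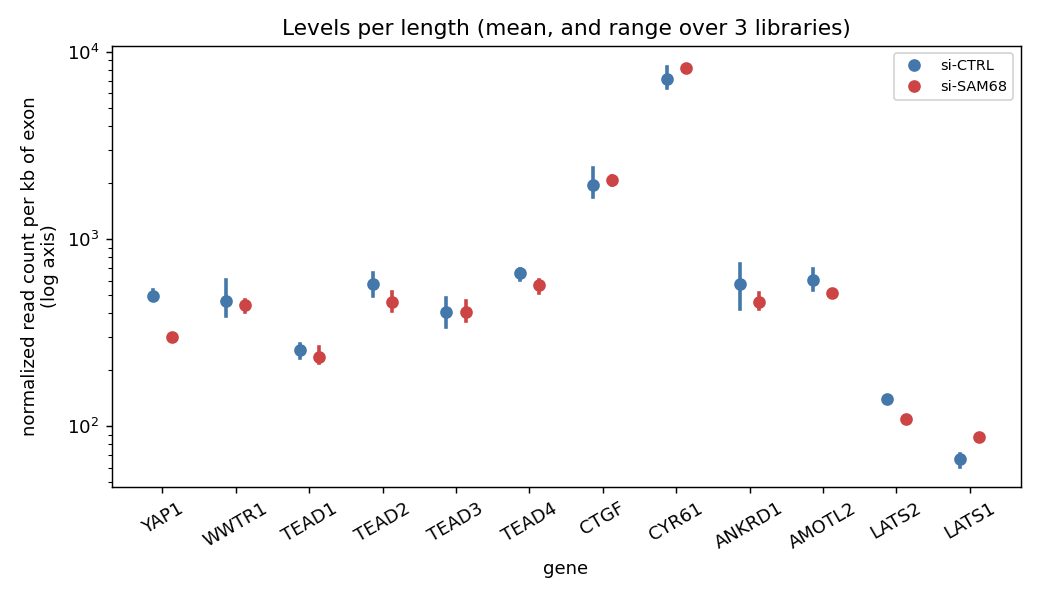
Normalized read count per kb of exon on a log axis, for si-CTRL (blue) and si-SAM68 (red), with the mean as a point and the range over 3 libraries as a line. TEAD2 and LATS1 are shown for comparison. YAP1 drops from 498 to 300.3 per kb, and LATS1 and LATS2 move toward each other.

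The other genes of the pathway were a list of 46 regulators, of which 45 were tested, since VGLL1 was listed at 0 in every library. Of these, 6 (13.3%) passed the test, 4 as higher and 2 as lower, and the groups did not overlap in 14 (31.1%). These shares stand beside 10.7% and 33.9% of all loci. The median log2 fold change was -0.05. By role, 1 of 6 genes of the core kinase cassette, 1 of 3 LATS inhibitors, 1 of 3 genes of YAP degradation and 3 of 20 upstream activators passed. None did among the 3 scaffolds, the 7 STRIPAK genes and the 3 TEAD partners. Some loci counted here also hold other genes: that of MOB4 holds HSPE1, that of PPP2CA holds CDKL3, and those of PPP2R1A and SCRIB hold microRNA genes. Their values are not those of the named gene alone.

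In the core cassette, LATS1 rose while its paralog LATS2 fell. LATS1 had 471, 548 and 540.0 in the si-CTRL libraries and 657, 696 and 681 in the si-SAM68 libraries. The groups did not overlap, and the log2 fold change was 0.39 (SE 0.101, adjusted p = 0.0391 by limma). Like LATS2, LATS1 lost its call in 7 of 16 alternatives, among them the replicate block (adjusted p = 0.0527) and the omission of si-CTRL replicate 2 (0.0561), si-CTRL replicate 3 (0.0759), si-SAM68 replicate 1 (0.0849), si-SAM68 replicate 2 (0.147) or si-SAM68 replicate 3 (0.131). The log2 ratio of LATS1 to LATS2, which was chosen after its values were seen, was -0.70, -0.54 and -0.47 in si-CTRL and 0.13, 0.17 and 0.18 in si-SAM68 libraries. The difference of 0.73 is a 1.66-fold higher ratio (exact permutation test, two-sided, p = 0.1, again the smallest possible). Per kb of exon, LATS1 moved from 66.9 to 87.3 and LATS2 from 139.6 to 109.8.

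The MST kinases and their adaptors did not pass. STK3, which encodes MST2, had 760.3 ± 62.8 in si-CTRL and 626 ± 88.2 in si-SAM68 libraries (SD, n = 3), and its log2 fold change was -0.29 (adjusted p = 0.164). STK4 (MST1) had -0.06 (adjusted p = 0.698) and the scaffold SAV1 0.08 (adjusted p = 0.527). MOB1A and MOB1B, paralogs that activate the LATS kinases, had log2 fold changes of 0.15 (adjusted p = 0.337) and -0.23 (adjusted p = 0.201). NF2, the membrane-associated activator called merlin, had 6055 ± 505 and 6056 ± 444, with a log2 fold change of 0.00 (SE 0.0885, adjusted p = 0.996). TEAD2, the remaining TEAD gene, had 1548 ± 224 in si-CTRL and 1230.3 ± 147 in si-SAM68 libraries, with -0.33 on the log2 scale (adjusted p = 0.126).

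Among the upstream activators, the atypical cadherins DCHS1 and FAT4 moved in opposite directions. DCHS1 encodes the ligand of FAT4, and had 93.7, 107 and 87.5 in si-CTRL and 47.3, 47.8 and 35.7 in si-SAM68 libraries. This fall to 45.5% was the largest of the list (log2 fold change -1.13, SE 0.201, adjusted p = 0.00844 by limma), on 32 to 110 reads per library, and was kept in all 16 alternatives. FAT4 had 109, 147 and 116 in si-CTRL and 203, 215 and 210.0 in si-SAM68 libraries. Its log2 fold change was 0.76 (SE 0.152, adjusted p = 0.0138), and the call was lost without si-SAM68 replicate 2 (adjusted p = 0.0575) or si-SAM68 replicate 3 (0.0696). MAP4K4 encodes a kinase that acts on LATS in parallel to the MST kinases. It had 52954, 39123 and 41842 in si-CTRL and 23544, 28395 and 27728 in si-SAM68 libraries, with no overlap. Its log2 fold change of -0.74 (SE 0.12, adjusted p = 0.00557), which left 59.5% of si-CTRL, was about as large as that of YAP1 and was kept in all 16 alternatives.

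AJUBA, a LIM-domain protein that inhibits LATS kinases, rose from 6719.7 ± 819 to 9557 ± 504 (SD, n = 3). The log2 fold change was 0.51 (SE 0.0979, adjusted p = 0.0114 by limma), and the call was lost without si-SAM68 replicate 1 (0.0552) or si-SAM68 replicate 3 (0.0642). Its locus also holds HAUS4 and MIR4707, and the reads of these genes cannot be told apart. WTIP, a related LATS inhibitor named here after its values were seen, had 86.2, 99.8 and 109 in si-CTRL and 62.5, 68.1 and 36.9 in si-SAM68 libraries. All si-SAM68 libraries were lower, with a log2 fold change of -0.85 (SE 0.247) that did not pass the test (adjusted p = 0.0565). LIMD1, the remaining LATS inhibitor of the list, had 0.08 (adjusted p = 0.623). BTRC encodes the substrate receptor of the ubiquitin ligase that degrades phosphorylated YAP. It rose from 2411 ± 55.9 to 3024 ± 123, with a log2 fold change of 0.33 (SE 0.0751, adjusted p = 0.0242). The call for BTRC was lost without any 1 of the libraries other than si-CTRL replicate 1, with adjusted p-values of 0.0539 (si-CTRL replicate 2), 0.0709 (si-CTRL replicate 3), 0.0513 (si-SAM68 replicate 1), 0.126 (si-SAM68 replicate 2) and 0.0979 (si-SAM68 replicate 3).

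**Figure D4:**
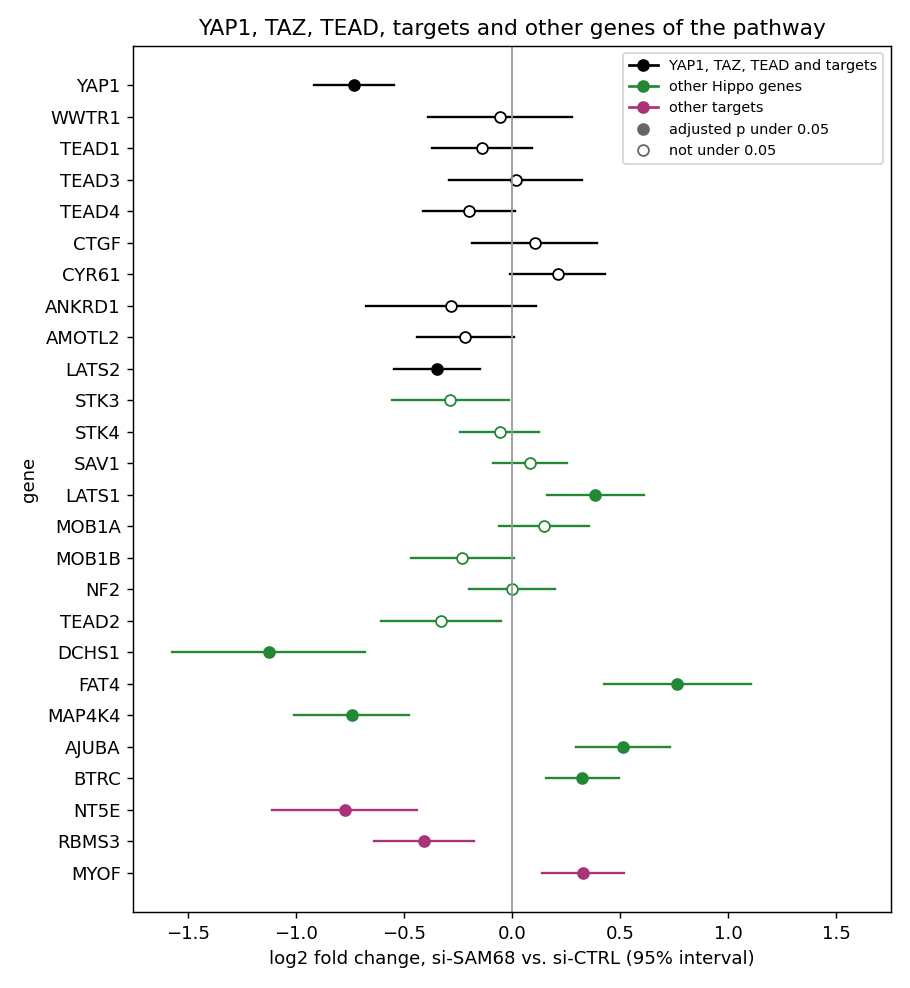
Log2 fold change (si-SAM68 vs. si-CTRL) with its 95% interval from limma, for the 10 genes (black), other Hippo genes (green) and other targets (magenta). Filled points have an adjusted p under 0.05, and the intervals are not adjusted for the number of loci. Of the genes drawn, which do not include all those of the lists, YAP1, DCHS1, MAP4K4 and NT5E lie farthest to the left, and FAT4 lies farthest to the right at 0.76.

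A further 17 genes that are often used as a signature of YAP and TAZ activity were all tested. Of these, 3 (17.6%, beside 10.7% of all loci) passed, 2 as lower and 1 as higher, and the median log2 fold change was 0.07, with 10 above 0 and 7 below. The groups did not overlap in 9 of the 17 (52.9%), compared with 33.9% of all loci. Among these 9, the locus of DOCK5 also holds PPP2R2A and MIR6876, and that of TGFB2 also holds TGFB2-OT1. NT5E, the gene of the surface ecto-nucleotidase CD73, had 12266, 7848 and 10389.8 in si-CTRL and 5148, 6514 and 5974 in si-SAM68 libraries. The lowest control was above the highest si-SAM68 library, and the log2 fold change was -0.77 (SE 0.150, adjusted p = 0.0125 by limma). The call for NT5E was lost without si-SAM68 replicate 1 (0.0619) or si-SAM68 replicate 3 (0.0655).

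RBMS3, which encodes an RNA-binding protein, fell from 607 ± 54.4 to 456 ± 7.96, with a log2 fold change of -0.41 (SE 0.104, adjusted p = 0.0355 by limma). MYOF, the gene of the membrane repair protein myoferlin, rose from 16136 ± 1679 to 20209 ± 361, with 0.33 (SE 0.0853, adjusted p = 0.0373). Both lost their calls with the replicate block (adjusted p = 0.0525 for RBMS3 and 0.0566 for MYOF), which left 1 of the 17 targets called. Both also lost them without a filter on low values (0.0539 and 0.0646) and with quantile normalization (0.0505 and 0.0642). With single libraries left out, RBMS3 lost its call without si-CTRL replicate 3 (0.0793) or any si-SAM68 replicate (0.0876, 0.129 and 0.113 for replicates 1, 2 and 3). MYOF lost its call without si-CTRL replicate 2 (0.0896), si-CTRL replicate 3 (0.121) or any si-SAM68 replicate (0.0923, 0.131 and 0.135). PTPN14, a phosphatase that stands on both lists because it binds YAP and is also its target, had a log2 fold change of 0.14 (adjusted p = 0.526).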

How the data were processed

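RNA-seq libraries of MDA-MB-231 cells (3 si-CTRL and 3 si-SAM68) were grouped by their labels. The authors deposited 1 table for the series, whose values are a signal: reads per FAST DB locus (hg19) divided by a DESeq2 size factor. The submitters' processing notes name STAR 2.4.0, FastQC, Picard, SAMtools and DESeq2. The counting program and the use of strand are not given in the sources used here, so overlapping loci may share reads. In each library 100% of the deposited values were whole multiples of 1 step (within 0.1 of a whole number), and the reads were recovered for edgeR and DESeq2. The step of si-SAM68 replicate 1 (1.007) was too near 1 for an automatic test. Replicates differed beyond sampling noise (chi-square per degree of freedom of at least 12.6), and the pairs with 1 library of each group had the highest values. Between si-CTRL replicates 2 and 3 the value was 12.6, against 75.3 and 79.1 for the pairs with si-CTRL replicate 1. Between si-SAM68 replicates 1 and 3 it was 20.3, against 386.1 and 387.5 for the pairs with si-SAM68 replicate 2. This measure was scaled by total reads and includes the rRNA locus. That locus held 15.1% of the reads of si-SAM68 replicate 2, and 2.46% and 1.95% of those of replicates 1 and 3. The high values of si-SAM68 replicate 2 therefore do not show that it stood apart over the other loci. The measure was not repeated without the rRNA locus. Total reads are given in the text, and precision was limited mainly by the number of libraries.

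Loci with a mean of at least 10 were tested on log2(normalized read count + 1), a scale that understates changes of low genes, with limma 3.58.1 (lmFit, eBayes with a trend) in R 4.3.3, with Benjamini-Hochberg adjustment. On simulated data for 18849 loci, 177 of 200 loci changed 2-fold (88.5%) were recovered with 7 false calls. The simulation gave every locus the same median spread, with no pairing of replicates and no library that stood apart. It checks that the fit runs correctly and does not give the power or error rate for the smaller changes of the genes here. The genes and lists were chosen with earlier results of these data known. The text names the 10 genes, KHDRBS1, the core genes STK3, STK4, SAV1, LATS1, MOB1A, MOB1B, NF2 and TEAD2, up to 6 further regulators and up to 8 further targets with the largest fold change at an adjusted p under 0.05. Deviations from the group means correlated at 0.105, 0.231 and 0.125 between libraries of the same replicate number and at -0.125 to 0.007 otherwise. The replicate numbers were therefore treated as a possible pairing of the libraries, although the labels do not say what a number marks. The main fit, with its p-values, standard errors and intervals, does not use this pairing. A replicate block was added to the model as an alternative.

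Other alternatives were pseudocounts of 0.1 and 5, no filter, a mean of at least 50, TMM factors, quantile normalization, a robust trend, each library left out, edgeR 4.0.16, DESeq2 1.42.0 and the thresholds of the study. Exon lengths, 3′UTRs and transcripts are from GENCODE 29 (GRCh38), used for length and sequence only, and siRNA sequences are from the supplement of the study. Figures were drawn with matplotlib 3.10.9 in Python 3.11.15.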

Additional observations from a re-analysis of the deposited data

How the results depend on the processing

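Of the 10 genes, 2 were called, and 1 (YAP1) was called without a filter on low values, with the replicate block and by the thresholds of the study. With single libraries left out, 1 to 4 were called, with 4 only in the absence of si-CTRL replicate 1. Of the other targets, 3 were called, 1 without a filter, 1 with the replicate block, 1 by the thresholds of the study, 7 by DESeq2, and 0 to 4 with single libraries left out. Of the regulators, 6 were called, and 2 to 8 with single libraries left out. Over all loci, 2017 were called, 1697 with the block, 1500 without a filter, 2026 by edgeR, 2789 by DESeq2 (2209 without an adjusted p) and 627 (without si-SAM68 replicate 3) to 2834 (without si-CTRL replicate 1) with single libraries left out. The replicate block changed no calls of named genes other than LATS2, LATS1, RBMS3 and MYOF. Values near 0 changed sign: WWTR1 ranged from -0.18 to 0.14 with single libraries left out (0.00085 without si-SAM68 replicate 1), TEAD3 from -0.11 to 0.15 (-0.08 without si-SAM68 replicate 1), and NF2 from -0.0567 to 0.0643 (-0.00673 without si-CTRL replicate 2, -0.0544 without si-CTRL replicate 3), and NF2 was at -0.00801 with quantile normalization. No alternative moved the median of all loci by as much as 0.01. The causes were not tested, beyond the fewer libraries or the larger number of loci tested that these settings imply. The 95% intervals of the 8 genes not called all include 0 and are wider than that of LATS2.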
